A study of Mus musculus with 10 samples.

Results

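Complement is a cascade of plasma proteins that marks microbes, immune complexes and dying cells for removal. Its C3 fragments are deposited on a target by the classical, lectin or alternative pathway, and receptors and regulators on the cell surface read the deposit or stop it. B cells of the spleen carry complement receptors, and macrophages, monocytes and neutrophils make several of the soluble components.

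The genes described here are 8 of the 54532 genes in the count table, chosen by symbol as complement components, receptors and regulators: C3, C4b, Cfb, Cfp, Cd55, Cr1l, C3ar1 and C5ar1. Each symbol stood in 1 row of the table. RNA was sequenced from splenic B cells of mice, with 5 libraries from wildtype controls and 5 from animals made fibrotic in the liver by carbon tetrachloride, a toxin to hepatocytes that was given into the peritoneum over 4 weeks. The sources used here do not give strain, age, sex, any injection of the controls, how the B cells were isolated or whether each library was 1 animal. The p-values therefore reflect library-to-library spread alone, and that spread may be technical. The comparison asks how expression in splenic B cells differs between fibrotic and control mice.

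Of the 8 genes, 7 had enough counts to be tested and Cfb did not. Cd55 and C4b rose in fibrosis, C3 fell, and Cfp, Cr1l, C3ar1 and C5ar1 did not pass the test (edgeR's quasi-likelihood test, adjusted p under 0.05 over all tested genes). Calls of either direction made up 35.7% of the 14283 genes tested, 18.6% higher and 17.2% lower, so 3 calls among 7 genes is a share near the background. In CPM, the libraries of the groups did not overlap for 2 of the 7 genes, Cd55 and Cr1l, where 25.4% of all tested genes did not overlap. The median log2 change of the 7 genes was 0.32, against 0.05 for all tested genes.

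**Figure D1:**
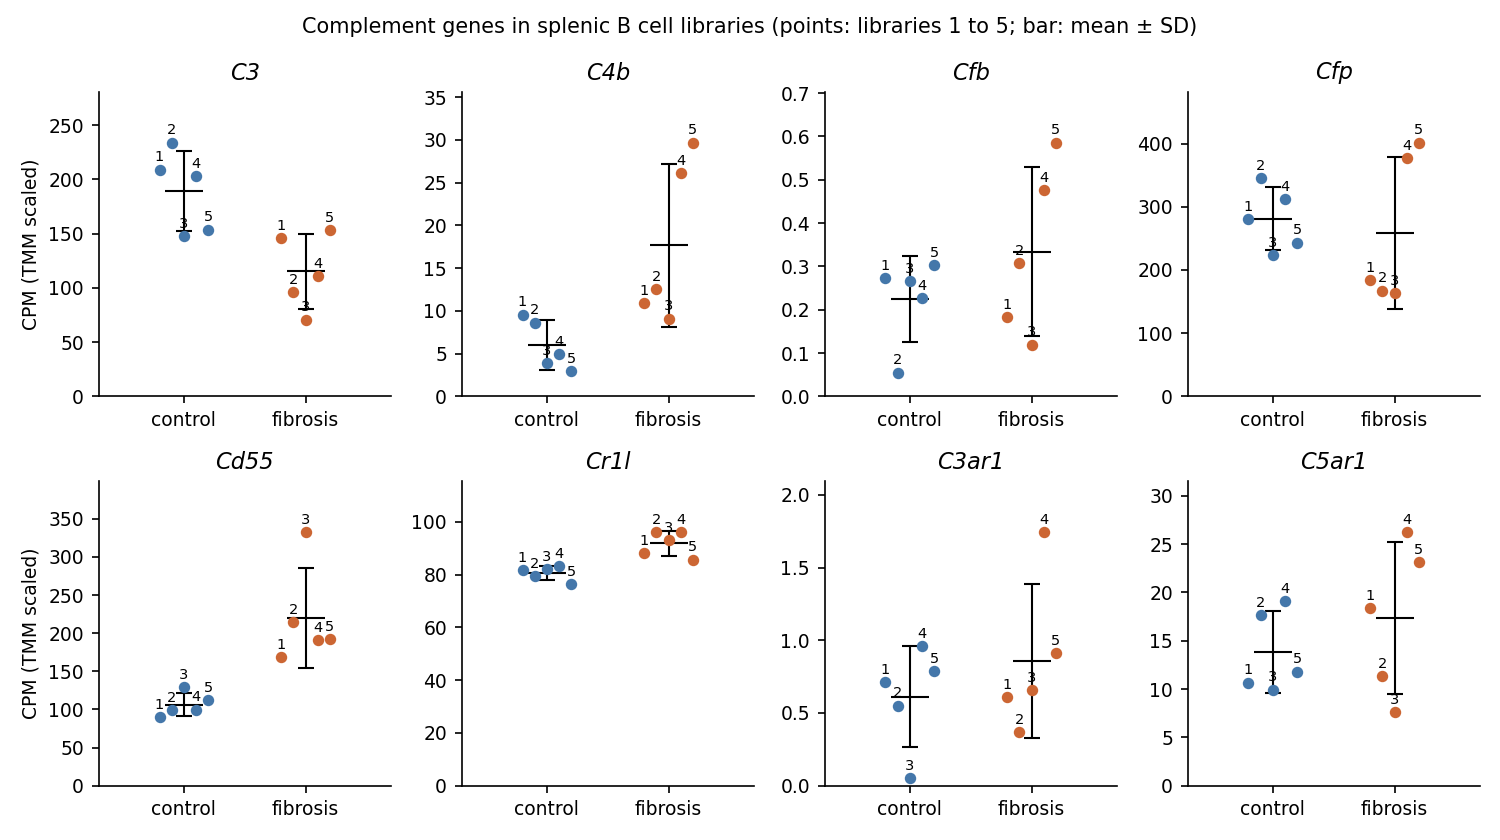
Level of each complement gene in CPM (counts scaled to a common library size with TMM factors; y axis from 0) in the control and fibrosis libraries; points are libraries with their number, bars are the mean ± SD (n = 5 each). All 5 fibrosis libraries lie above all 5 controls for Cd55 and Cr1l, while fibrosis 4 and 5 lie apart from fibrosis 1 to 3 for C4b and Cfp.

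The libraries held 13439100 to 17954551 counts. Markers of B cells were high in every library. The summed level of 9 identity genes such as Cd79a and Cd79b was 8457 to 8979 CPM in fibrosis 1 to 3, above every control. It was 6317 and 6712 CPM in fibrosis 4 and 5, within the control range of 5945 to 6823 CPM. Of the 9 genes, 4 were called higher by edgeR, where 18.6% of all tested genes were. Markers of other cells were present too, so in these bulk libraries a change in the share of a cell type and a change in RNA per cell cannot be told apart. Fibrosis 4 and 5 stood apart: 10 neutrophil markers summed to 3521 and 4435 CPM there, against 399 to 1478 CPM in the other fibrosis libraries and 673 to 1633 CPM in control. The sum of 6 platelet and megakaryocyte markers was 958 and 1007 CPM in those libraries, 219 to 560 CPM in the other fibrosis libraries and 123 to 154 CPM in control. Of 12 macrophage and monocyte markers, 0 were called in either direction, where 35.7% of all tested genes were. The median log2 change of the 12 was -0.31. They summed to 1469 to 2876 CPM in fibrosis 1 to 3 and to 3894 and 4662 CPM in fibrosis 4 and 5. In control the sum was 2945 to 4686 CPM. Each result below is therefore also given without fibrosis 4 and 5 where that moves it. These libraries were picked after the values were seen. The p-values of that fit are therefore descriptions and add no support, above all for genes that follow the markers named here.

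Compared per gene length, the levels spanned more than 3 orders of magnitude. In the controls, the deposited FPKM (fragments per kilobase of gene, scaled to library size) was highest for Cfp (162 ± 29.2, SD, n = 5), followed by C3 (36.8 ± 7.37), Cd55 (21.8 ± 2.98), Cr1l (7.77 ± 0.24), C5ar1 (5.38 ± 1.66), C4b (1.05 ± 0.52), C3ar1 (0.143 ± 0.081) and Cfb (0.079 ± 0.035). Neighbours in this order whose control libraries overlapped were Cr1l with C5ar1 and C3ar1 with Cfb. In fibrosis Cd55 (44.6 ± 13.3 FPKM) and C3 (22.0 ± 6.42 FPKM) changed places. Each fibrosis library had more Cd55 than C3 per length, from 35.5 to 67.8 FPKM against 13.6 to 28.9 FPKM, and each control library had less.

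**Figure D2:**
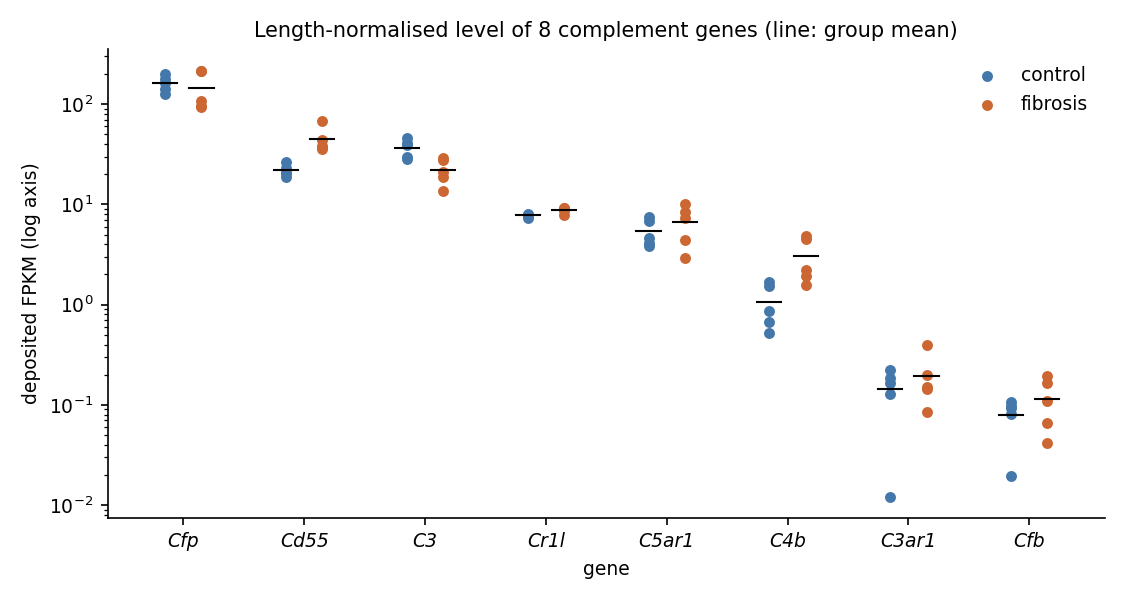
Deposited FPKM of each gene (log axis) in the control and fibrosis libraries, ordered by mean level; points are libraries and lines are group means. Cfp was the most abundant of the 8 transcripts per length, and Cd55 and C3 changed places between the groups.

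Among the soluble components, C3 encodes the central protein of the cascade, whose fragments are fixed to the target. It lies on chromosome 17 (57203970 to 57228136, minus strand, GRCm38). In controls 1 to 5 it stood at 209, 234, 148, 203 and 154 CPM. In fibrosis 1 to 5 it stood at 146, 96.3, 70.8, 110.5 and 153 CPM. Fibrosis 5 was above control 3, and otherwise every fibrosis library was below every control. The fall was -0.72 ± 0.20 in log2 units (SE; edgeR adjusted p = 0.0147), from a mean of 189 ± 37.2 to 115 ± 34.3 CPM. Without fibrosis 4 and 5 it was -0.85 ± 0.24 (adjusted p = 0.0177 by edgeR). The macrophage and monocyte marker sum fell in the same order as C3 over fibrosis 1 to 3 (2876, 2171 and 1469 CPM). Controls 3 and 5 had the lowest sums of the controls (2945 and 3243 CPM) and the least C3. Fibrosis 4 and 5 departed from this order. Fibrosis 4 had a higher sum than fibrosis 1 (3894 against 2876 CPM) and less C3 (110.5 against 146 CPM). Fibrosis 5 had a sum like that of control 4 (4662 against 4650 CPM) and less C3 (153 against 203 CPM). The part of these cells in the fall was not tested.

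The sequence before the C3 start site is shown with that of Cd55, because these genes were called in opposite directions and neither depends on fibrosis 4 and 5. The RefSeq table (build GRCm38.p6) held a promoter for 6 of the 8 genes, with none for C4b and Cfb. The 250 bases upstream of the start are printed 5′ to 3′ on the gene's strand, C3 at chr17:57228137-57228386 (minus strand) and Cd55 at chr1:130462745-130462994 (minus strand), in capitals where one of 5 searched motifs matched.
C3: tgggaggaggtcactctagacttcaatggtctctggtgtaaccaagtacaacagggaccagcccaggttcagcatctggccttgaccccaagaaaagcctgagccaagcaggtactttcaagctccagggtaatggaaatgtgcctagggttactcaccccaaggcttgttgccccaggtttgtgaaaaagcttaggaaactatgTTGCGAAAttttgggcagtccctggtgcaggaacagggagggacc
Cd55: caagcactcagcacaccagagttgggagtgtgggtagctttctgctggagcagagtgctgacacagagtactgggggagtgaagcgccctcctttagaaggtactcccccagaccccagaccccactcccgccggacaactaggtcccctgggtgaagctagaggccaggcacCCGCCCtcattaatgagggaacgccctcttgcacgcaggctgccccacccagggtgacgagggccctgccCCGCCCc
The capitals mark a match to TTGCNNAA, the core bound by C/EBP factors, in C3, and a pair of matches to GGGCGG, the GC box, in Cd55. Both strands were searched. Of 32851 promoters of the same length, 9.56% held the first and 32.7% the second. The kappa-B consensus, TTCNNNGAA and TGGGAA had no match in these windows and were held by 7.25%, 7.02% and 21.6% of all promoters. A match describes letters only and not a bound site.

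C4b encodes a component of the classical and lectin pathways, cleaved to start assembly of the C3 convertase. The gene lies on chromosome 17 (34728380 to 34743882, minus strand). Its control libraries held 9.57, 8.64, 3.88, 4.92 and 2.97 CPM. Its fibrosis libraries held 10.9, 12.6, 9.09, 26.1 and 29.7 CPM. Fibrosis 3 lay below control 1, and all other fibrosis libraries lay above all controls. The mean rose from 6.0 ± 2.94 to 17.7 ± 9.50 CPM, or 1.55 ± 0.42 in log2 units (SE; edgeR adjusted p = 0.0135). The 2 highest libraries were fibrosis 4 and 5, and without them the change was 0.86 ± 0.33 (adjusted p = 0.0642 by edgeR), which no longer passed.

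C4a, the neighbouring copy of this gene, went the other way. It had few counts, 55 over the fibrosis libraries and 116 over the controls. Its controls held 1.15, 0.94, 1.60, 1.36 and 1.45 CPM and its fibrosis libraries 0.98, 0.55, 0.72, 0.48 and 0.78 CPM. The log2 difference was -0.87 ± 0.27 (edgeR adjusted p = 0.0235; -0.78 and adjusted p = 0.0764 without fibrosis 4 and 5). Leaving out fibrosis 2 (-0.79), fibrosis 4 (-0.77), control 3 (-0.79) or control 5 (-0.83) also took C4a past the threshold, with adjusted p from 0.0512 to 0.0589 by edgeR. The copies can be confused in counting. C4a is listed as a processed transcript and not as a protein-coding gene. The longest transcript of each in GENCODE vM21 was aligned, a protein-coding one where the gene had any. They were identical at 5160 of 5367 aligned bases (96.14%), and 15.2% of the 100-base windows of C4b transcripts also occurred in C4a. The stretch of 60 aligned bases with the most differences within the coding part of C4b, 13, is shown to make clear what separates the copies. It is in the sense of the transcript, with differing bases in capitals.
C4b: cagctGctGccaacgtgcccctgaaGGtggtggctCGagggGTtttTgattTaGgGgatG
C4a: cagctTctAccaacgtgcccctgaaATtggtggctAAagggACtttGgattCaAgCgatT
For the log2 ratio of C4b to C4a, 0.5 was added to each CPM, which is near the level of C4a itself, so the size of the ratio depends on it. The ratio was 1.74 ± 0.86 in control and 3.78 ± 0.86 in fibrosis (SD, n = 5 each). Each fibrosis library, from 2.94 upwards, exceeded each control, up to 2.67. That difference of 2.03 had a two-sided exact permutation p of 0.00794, the smallest that 252 splits allow. It was 0.00992 adjusted over 5 ratios that were chosen after the values were seen. C4b and C4a were already called in opposite directions, so that p-value adds no support.

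Cfp encodes properdin, the stabiliser of the alternative pathway convertase, on the X chromosome (20925454 to 20931555). The controls held 281, 345, 223, 312 and 243 CPM. The fibrosis libraries held 184, 167, 163, 377 and 401 CPM. Fibrosis 1 to 3 were below every control and fibrosis 4 and 5 above every control, so the group means of 258.6 ± 119.7 and 281 ± 49.7 CPM (fibrosis and control) cover opposite positions. Over all libraries the change was -0.12 ± 0.27 (adjusted p = 0.767 by edgeR). Without fibrosis 4 and 5 it was -0.70 ± 0.13 (adjusted p = 0.00157 by edgeR). The summed macrophage and monocyte markers had the same low position in fibrosis 1 to 3, at most 2876 CPM against at least 2945 CPM in control. Their part in the change of Cfp was not tested.

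Cfb encodes factor B, which supplies the protease of the alternative convertase. It had 25 counts over the fibrosis libraries and 20 over the controls, between 1 and 9 per library, and was too low to test, so a difference was not detectable at this depth. Of its annotated exon bases, 79.5% also belong to Gm20547, a gene model on the same strand that extends into the neighbouring C2 gene and had 0 counts. The sources used here do not say how reads falling in both were counted, so the level of Cfb is uncertain. The log2 ratio of C3 to Cfp was -0.57 ± 0.09 in control and -1.10 ± 0.55 in fibrosis, a difference that did not pass (exact permutation p = 0.0952, adjusted p = 0.0952).

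Among the regulators and receptors, Cd55 encodes decay-accelerating factor, an anchored surface protein that takes convertases apart. It lies on chromosome 1 (130439027 to 130462744, minus strand). The controls held 89.8, 99.2, 129, 99.7 and 112 CPM. The fibrosis libraries held 168, 215, 333, 191 and 192 CPM. The lowest fibrosis library was above the highest control, and fibrosis 3 stood well above the other fibrosis libraries. Cd55 rose by 1.05 ± 0.17 in log2 units (SE; edgeR adjusted p = 0.000511), from 106 ± 15.3 to 219.7 ± 65.3 CPM. The change was 0.83 without fibrosis 3 (adjusted p = 0.000255 by edgeR) and 1.18 ± 0.19 without fibrosis 4 and 5 (adjusted p = 0.000949 by edgeR). With libraries scaled so that the B cell identity genes were even, it was 0.69 (adjusted p = 0.00257 by edgeR), where the median tested gene moved to -0.30. The copy Cd55b had 36 counts in all libraries together, and 4.19% of the 100-base windows of Cd55 transcripts also occurred in it. Gm16083, an antisense gene, covers 2.1% of the exon bases of Cd55.

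Cr1l encodes Crry, the rodent surface regulator that is a cofactor for cleavage of C3b and C4b. It lies on chromosome 1 (195097382 to 195131586, minus strand). It was the steadiest of the 8 genes, at 81.6, 79.4, 82.0, 83.1 and 76.4 CPM in the controls and 88.2, 96.2, 93.0, 96.0 and 85.6 CPM in fibrosis. In CPM every fibrosis library was above every control, yet the change was small, 0.19 ± 0.07 (SE; adjusted p = 0.0513 by edgeR), from 80.5 ± 2.63 to 91.8 ± 4.71 CPM. The separation did not hold in deposited FPKM, where fibrosis 5 (7.75) lay below controls 1, 3 and 4 (7.91, 7.80 and 8.04). With scaling by library size alone the change was 0.08 (adjusted p = 0.428 by edgeR). The adjusted p lay between 0.0284 and 0.428 over 23 alternatives, and the change turned to -0.15 (adjusted p = 0.375 by edgeR) when libraries were scaled to the B cell identity genes. In that scaling the median tested gene moved to -0.30. Cr1l passed in 6 of the 23. With all libraries these were the stricter filter (adjusted p = 0.0416 by edgeR), DESeq2 (adjusted p = 0.0481) and limma with voom weights (adjusted p = 0.0284). The others left out fibrosis 1 (0.20, adjusted p = 0.0470 by edgeR), fibrosis 5 (0.21, adjusted p = 0.0432) or both fibrosis 4 and 5 (0.21 ± 0.07, adjusted p = 0.0331).

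Next to Cr1l on chromosome 1 lies Cr2 (195136811 to 195176716), which in mice encodes both CD21 and CD35, the B cell receptors for C3 fragments. It held 164 to 233 CPM in control and 378 to 576 CPM in fibrosis. It rose by 1.32 ± 0.14 in log2 units (edgeR adjusted p = 3.74e-05). The rise of Cr2 exceeded that of Cr1l: their log2 ratio was 1.21 ± 0.20 in control and 2.34 ± 0.28 in fibrosis (exact permutation p = 0.00794, adjusted p = 0.00992), with no overlap. The log2 ratio of Cd55 to Cr1l also differed, 0.38 ± 0.21 in control against 1.21 ± 0.36 in fibrosis (exact permutation p = 0.00794, adjusted p = 0.00992). Relative to Cr1l, both Cd55 and Cr2 were thus higher in every fibrosis library than in any control. That was already so for Cd55 and Cr2 alone, and Cr1l varied little, so the p-values of these ratios add no support. The pairs were also chosen after the values were seen.

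The anaphylatoxin receptors respond to the small fragments released from C3 and C5. C5ar1, the C5a receptor gene on chromosome 7 (16246743 to 16259540), held 10.7, 17.7, 9.95, 19.1 and 11.8 CPM in the controls and 18.4, 11.3, 7.60, 26.3 and 23.2 CPM in fibrosis. The groups overlapped, with the highest values in fibrosis 4 and 5, the libraries with the most neutrophil markers, whose part was not tested. The change was 0.32 ± 0.32 (adjusted p = 0.464 by edgeR), and -0.14 ± 0.30 without those libraries (adjusted p = 0.744 by edgeR). C3ar1, the C3a receptor gene on chromosome 6 (122847138 to 122856161), had 63 counts over the fibrosis libraries and 54 over the controls, between 1 and 22 per library. Its change was 0.46 ± 0.52 (adjusted p = 0.528 by edgeR), smaller than its standard error. Without fibrosis 4 and 5 it turned to -0.14 ± 0.57 (adjusted p = 0.870 by edgeR), and without fibrosis 4 alone it was 0.06 and without control 3 alone 0.15.

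C5ar2, the second C5a receptor gene, lies beside C5ar1 and fell. It held 6.07, 6.66, 7.61, 7.41 and 6.42 CPM in the controls and 3.48, 3.08, 2.57, 5.00 and 4.75 CPM in fibrosis, without overlap. The change was -0.86 ± 0.19 (adjusted p = 0.00355 by edgeR), and -1.16 ± 0.17 without fibrosis 4 and 5 (adjusted p = 0.000312 by edgeR). The log2 ratio of C5ar1 to C5ar2 was 0.92 ± 0.41 in control and 1.96 ± 0.39 in fibrosis (exact permutation p = 0.00794, adjusted p = 0.00992), again without overlap. This pair too was chosen after the values were seen, with C5ar2 alone already apart, so that p-value adds no support.

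The wider pathway was described with a list of 46 other complement genes, of which 20 were tested, 4 were higher and 2 lower in fibrosis. Their median log2 change was 0.09, and 6 calls among 20 genes is close to the background of 35.7%. The higher genes included Cr2, Itgax and Clu, and the lower ones were C4a and C5ar2. Clu, the clusterin gene, an inhibitor of the terminal complex, rose from 23.5 ± 2.58 to 106 ± 59.5 CPM, with 171 and 163 CPM in fibrosis 4 and 5, where the platelet markers were also highest; their part was not tested. The change was 2.17 ± 0.36 (adjusted p = 0.000917 by edgeR) and 1.48 ± 0.23 without them (adjusted p = 0.000644 by edgeR). Itgax, a chain of the iC3b receptor CR4 that dendritic cells also express, rose by 0.62 ± 0.08 (adjusted p = 0.000131 by edgeR). With scaling to the B cell identity genes it stood at 0.28 (adjusted p = 0.101 by edgeR), where the median tested gene moved to -0.30. The 9 dendritic cell markers summed to 178 to 242 CPM in fibrosis and 109 to 121 CPM in control, and their part in the rise of Itgax was not tested.

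Of the other genes of initiation and of the terminal pathway, 6 of 9 classical, 2 of 8 lectin and 2 of 7 terminal pathway genes were tested. C4a was the 1 called, where 35.7% of all tested genes were called in either direction. Cfd, the factor D gene, had 7 counts in all. C1qa, a chain of the C1q recognition molecule that macrophages make, held 141 to 288 CPM in control, 96.0 to 112 CPM in fibrosis 1 to 3, and 458 and 440.1 CPM in fibrosis 4 and 5. C1qb and C1qc were placed in the same way. The change of C1qa was 0.11 ± 0.47 over all libraries (adjusted p = 0.875 by edgeR) and -1.08 ± 0.23 without fibrosis 4 and 5 (adjusted p = 0.00441 by edgeR). Fcna, the ficolin A gene, went from -0.15 ± 0.45 (adjusted p = 0.830 by edgeR) to -1.26 ± 0.23 (adjusted p = 0.00221), and C6, a terminal component, from 0.45 ± 0.45 (adjusted p = 0.479) to -0.67 ± 0.21 (adjusted p = 0.0295), by the same test. C2 went from -0.69 ± 0.34 (adjusted p = 0.127 by edgeR) to -1.43 ± 0.24 (adjusted p = 0.000709), and Cd59a, a membrane inhibitor of the terminal complex, from -0.64 ± 0.29 (adjusted p = 0.108) to -1.05 ± 0.26 (adjusted p = 0.00851). Both passed when fibrosis 4 alone was left out, at -1.04 (adjusted p = 0.0150 by edgeR) and -0.94 (adjusted p = 0.0109 by edgeR). With all libraries C2 and Cd59a also passed without a filter (adjusted p = 0.00880 and 0.00198 by edgeR) and with voom weights (adjusted p = 0.00343 and 0.0229 by limma).

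**Figure D3:**
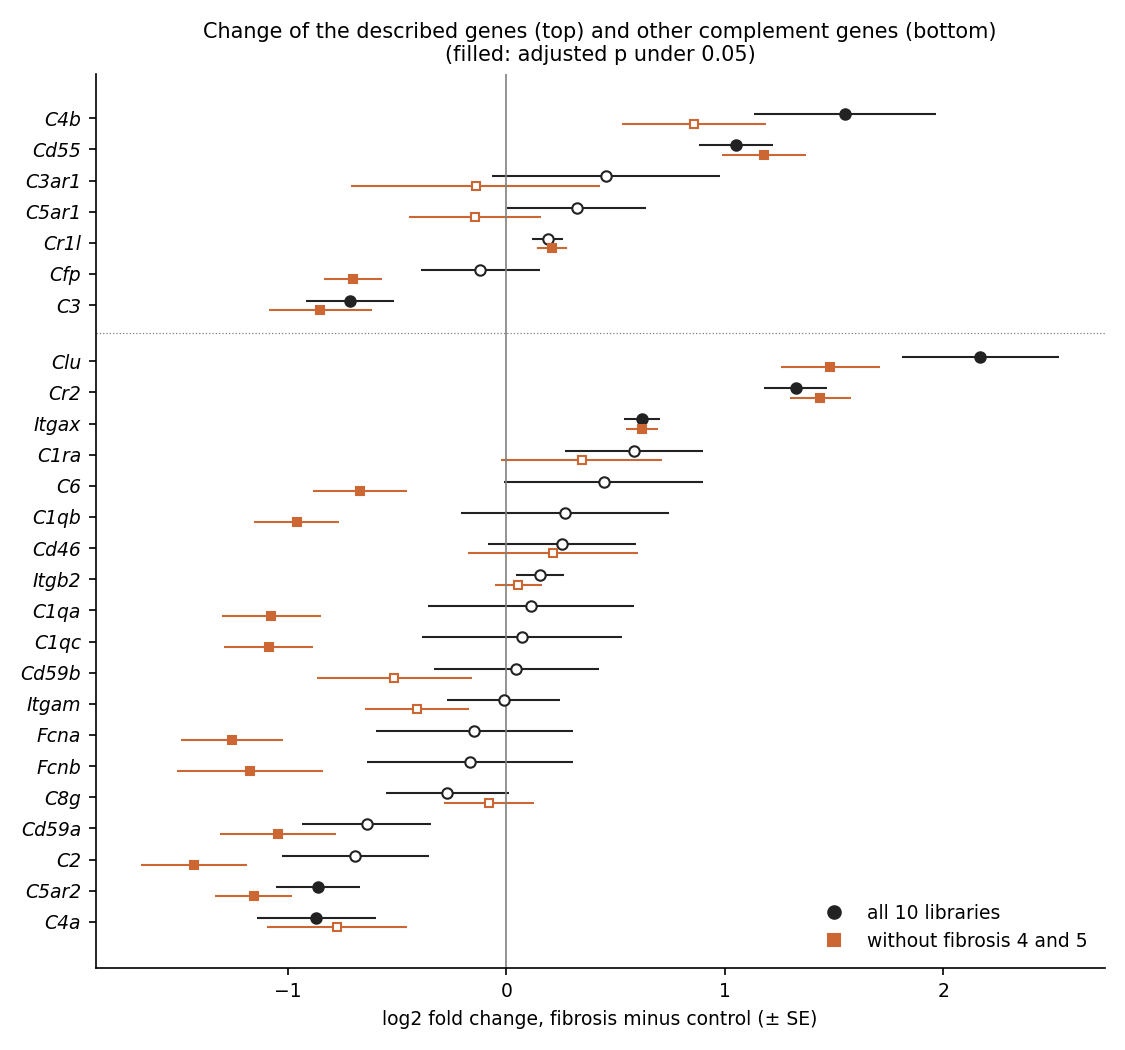
Log2 fold change (x axis, fibrosis minus control, ± SE) of the 7 tested genes above the dotted line and of other tested complement genes below it, for all libraries (circles) and without fibrosis 4 and 5 (squares); filled symbols passed an adjusted p under 0.05 by edgeR. Cd55, Cr2 and C3 hardly moved between the fits, while C4b and Clu shrank and Cfp, C1qa and Fcna moved to lower values that passed. Fibrosis 4 and 5 were picked after the values were seen.

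Without fibrosis 4 and 5, 9 of the 20 other complement genes were lower (C1qa, C1qb, C1qc, C2, Fcna, Fcnb, C6, C5ar2 and Cd59a) and 3 higher (Cr2, Itgax and Clu). Among 14607 genes tested in that fit, 18.8% were lower and 18.4% higher. Of the 7 genes described here, Cd55 and Cr1l were higher and C3 and Cfp lower, where 37.2% of all genes were called. The macrophage and monocyte sum was below every control in fibrosis 1 to 3, as given above. The libraries left out were picked on marker levels in these same data, so the calls of this fit are descriptions.

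**Figure D4:**
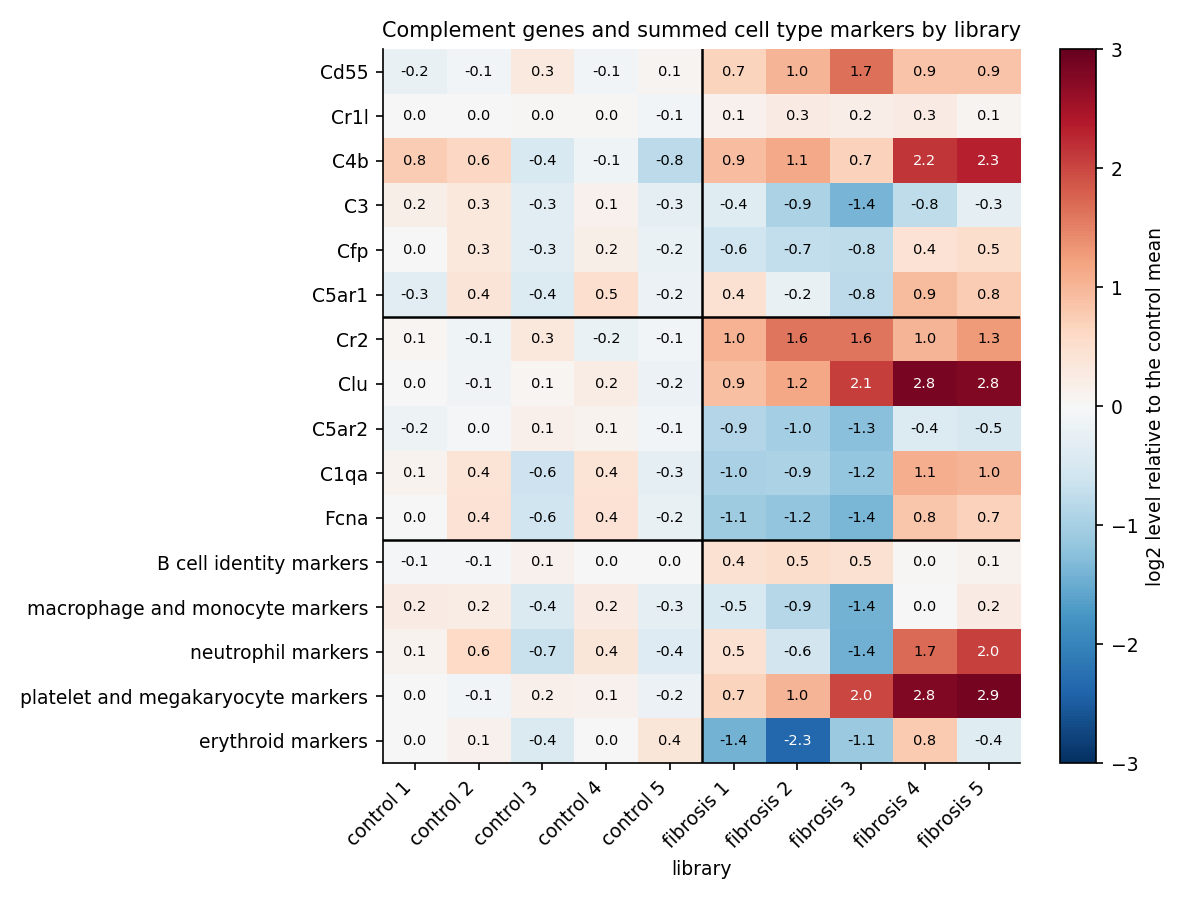
Log2 level in each library relative to the control mean (colour and number) for 6 of the described genes, 5 other complement genes and the summed markers of 5 cell types. Cd55 and Cr2 are raised in all fibrosis libraries, C1qa and Fcna are low in fibrosis 1 to 3 and high in fibrosis 4 and 5 as Cfp is, and C4b and Clu are highest in fibrosis 4 and 5.

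Markers of hepatocytes, the main source of plasma complement, were near 0 in the controls and low in fibrosis: 6 genes summed to 0.283 to 0.550 CPM and to 1.60 to 4.22 CPM. The albumin gene Alb, at 119 counts over the fibrosis libraries and 13 over the controls, was the tested gene of that list and rose by 3.33 ± 0.49 (adjusted p = 0.000225 by edgeR). The hepatocyte sum of every fibrosis library was above that of every control. The part of hepatocyte RNA in the levels of C3 and C4b was not tested. Stromal markers, 8 genes, summed to at most 2.90 CPM in any library, with Lum at 0 in all of them.

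The genes whose pattern was most like each of these were named by Pearson's r of log2 CPM over 10 libraries, among 10749 protein-coding genes averaging 2 CPM or more; the libraries share depth and cell composition, and the values are descriptions. For Cd55 they were Ccdc82, Gpr174 and Rabgap1l (r = 0.98 each; 0.92, 0.92 and 0.90 for deviations from group means). For C3 they were Csrp2 (r = 0.98), Rassf4 (0.97) and Rab44 (0.97). For Cfp they were Itgb5, Frmd4b and Mpc2 (r = 0.99 each, also within groups). For C4b they included Klk8 (r = 0.97) and Ndrg1 (0.96). For C5ar1 they were Il1f9, Retnlg and Asprv1 (r = 0.97 each), of which Retnlg is on the neutrophil marker list. Cr1l had weaker likeness, at most 0.94 with Exoc6b and 0.75 within groups, and C3ar1, with its few counts, at most 0.91 with Plekhj1.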

How the data were processed

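The authors deposited raw gene counts (whole numbers), 1 column per library, and a matching table of FPKM. From the values, each deposited FPKM is the count over the listed length and library total, times a factor of 0.935 to 1.07 per library. Per the submitters' processing notes the build is GRCm38 (mm10). The sources used here name no aligner, counting program or strand setting. All sample columns were used.

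edgeR 4.0.16 (R 4.3.3) kept 14283 of 54532 genes with filterByExpr, holding 99.9% of counts. Groups, 5 libraries each, were compared by TMM scaling and the quasi-likelihood test with robust dispersion, without covariate, with Benjamini-Hochberg adjustment and a threshold of 0.05. The standard error is the absolute log2 fold change over the square root of F, and levels are CPM on TMM-scaled library size. Precision follows the depth of 13439100 to 17954551 counts and a biological coefficient of variation of 0.183. The fit was tested on data simulated with the same spread for every gene, which does not cover genes of wider spread such as C1qa. Ratios of pairs of genes used log2 of CPM plus 0.5.

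The 8 genes, the 46 other complement genes and 16 marker lists (111 symbols) were chosen with earlier results of these data known. Named genes are the 8 genes, tested genes of the complement list that describe their role, and the 3 protein-coding genes most correlated with each tested gene. Alternatives were RLE scaling, scaling by library size alone, TMM factors from genes other than immunoglobulins and haemoglobins, scaling to the B cell identity genes, no filter, a stricter filter (1 CPM in 5 libraries), DESeq2 1.42.0, limma 3.58.1 with voom weights, limma on log2 FPKM plus 1 or 0.1, stricter thresholds, a replicate block and left-out libraries. Transcripts were aligned with Biopython 1.88. A few genes that the rule would name are not reported here.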

Additional observations from a re-analysis of the deposited data

Results flagged for a closer look

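Cd55 in fibrosis 3 was flagged because that library stood far from the rest of its group, at 333 CPM against 215 CPM in the next highest fibrosis library, a gap of 0.719 of the group's range where Dixon's 95% critical value for 5 samples is 0.71. It was the 1 flag among 56 groups of 5 libraries (28 genes), and chance flags about 1 in 20. Cd55 kept its call without that library, as given above.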

How the results depend on the processing

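Over 23 alternatives each, Cd55 (0.69 to 1.18), Cr2 (0.96 to 1.44), Clu (1.48 to 2.36), C3 (-1.04 to -0.60) and C5ar2 (-1.16 to -0.52) kept direction and call. C4b kept its direction (0.86 to 1.78) and lost its call with scaling to B cell identity genes (1.27), no filter (1.48), voom (1.04), FPKM without a filter (0.92), the replicate block (1.49) and without fibrosis 4 and 5 (0.86), with adjusted p from 0.0515 to 0.0838 by edgeR or limma. C4a lost its call in 8 of 22 alternatives, among them leaving out fibrosis 2 or 4 or control 3 or 5 (-0.83 to -0.77). The cause of these losses was not tested. The described genes called higher numbered 2 and were 1 under scaling to B cell identity genes, no filter, FPKM without a filter, an adjusted p under 0.01 and the replicate block, and 3 under the stricter filter and DESeq2. The 1 lower gene became 0 under a threshold of 0.01 or of 2-fold and 2 without fibrosis 4 and 5. Other complement genes called higher, 4, were 2 under scaling to B cell identity genes and under the 2-fold threshold. Scaling to B cell identity genes moved all genes down, with a median gene of -0.30. It called 531 genes higher and 4853 lower, against 2654 and 2451 in the main fit. Those called lower, 2, were 1 under the stricter filter, FPKM without a filter and a threshold of 0.01, 0 under the 2-fold threshold, 3 with no filter and with voom, and 9 without fibrosis 4 and 5. Leaving out 1 library gave 2 to 3 higher and 1 lower among the 7 genes, and 3 to 4 higher and 1 to 3 lower among the others (1 lower without fibrosis 2, control 3 or control 5). Among genes whose change is given above, values that changed sign were those of Cr1l (-0.15, scaled to B cell identity genes), C5ar1 (-0.045 with voom, -0.14 without fibrosis 4 and 5), C3ar1 (-0.14) and C6 (-0.67) without fibrosis 4 and 5, C6 with voom (-0.44), Cfp without fibrosis 2 (0.00028, in a range from -0.33 on leaving out 1 library) and Fcna without fibrosis 1, 2 or 3 (0.02, 0.034 and 0.02). C1qa was negative with library size only (-0.012), scaling to B cell identity genes (-0.11), voom (-0.72), FPKM plus 1 with or without a filter (-0.22 each) or plus 0.1 (-0.22), the replicate block (-0.21), without fibrosis 4 (-0.25) or 5 (-0.21) or control 3 (-0.02; up to 0.30 on leaving out 1 library), and without fibrosis 4 and 5 (-1.08). Cd59b, C1qc, C1qb, Itgam, Cd46, Fcnb and Itgb2 also changed sign, in 12, 11, 8, 4, 3, 2 and 1 of 23 alternatives. Library size only gave a median gene of -0.06 and 1777 higher and 3306 lower genes, against 2654 and 2451. Replicate numbers are shared between groups but nothing in the labels ties them: the correlation of same-numbered deviations ran from -0.29 to 0.47, and 2 of 5 fibrosis libraries correlated best with their own number. The block gave 2677 higher and 2534 lower genes. Cfb and C3ar1 had the fewest counts of the described genes, 45 and 117 in all, and the part of depth in the error of C3ar1 was not tested.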

Other observations

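The marker lists not described above had these summed levels. The 6 marginal zone B cell markers summed to 465 to 536 CPM in control and 823 to 1051 CPM in fibrosis, with 5 called higher by edgeR. The 5 follicular B cell markers summed to 1810 to 2251 and 2772 to 4030 CPM, with 4 called higher. Of all tested genes, 18.6% were called higher. These lists cover the B cells that carry Cr2 and Cd55, and their part in the rise of those genes was not tested. T cell markers summed to 32.9 to 46.8 CPM in control and 33.3 to 90.9 CPM in fibrosis, NK cell markers to 50.5 to 90.7 and 54.9 to 128 CPM, and plasma cell markers to 437 to 607 and 475 to 714 CPM. Basophil and mast cell markers summed to 3.15 to 5.6 CPM in control and 4.85 to 22.9 CPM in fibrosis, endothelial markers to 25.2 to 39.9 and 17.5 to 61.6 CPM, erythroid markers to 2853 to 4944 and 762 to 6715 CPM, and pancreatic acinar markers to 4.46 to 45.1 and 0.130 to 1.59 CPM.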
